A study of Mus musculus with 12 samples.

Results

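Bdnf, Ntf3, Ntrk2, Ntrk3, Ngfr, Gdnf, and Ret encode a pair of neurotrophins, their receptors, and a second growth factor system of neurons, and they were measured in the brainstem of neonatal mice after repeated morphine or saline. The genes were chosen by name from a family of known function. They are 7 of the 55418 genes in the count table, each had its own row, and none was at 0 in any mouse. The study asked how repeated neonatal morphine and the withdrawal that follows it alter gene expression in the brainstem (medulla and pons), and whether females and males differ.

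All 12 mice were outbred CFW mice of no engineered genotype, and all were P15 when tissue was taken. The 6 morphine mice (3 females and 3 males) had been injected with morphine (15 mg/kg, 2 times a day) on P1 through P14, and the 6 saline mice (3 females and 3 males) had received saline on the same days. The interval from the last injection was 16 h, so the morphine mice were in spontaneous withdrawal, and no group had morphine without withdrawal. Each library was poly-A RNA of 1 mouse. The study split each litter between saline and morphine. Litter is not in the labels, so p values measure the spread between these mice, some of which may share a dam.

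Neurotrophins are secreted as proproteins, cleaved, and bound by Trk receptor tyrosine kinases, with BDNF and neurotrophin 4 binding TrkB (Ntrk2) and neurotrophin 3 (Ntf3) binding mainly TrkC (Ntrk3). The p75 receptor (Ngfr) binds all neurotrophins and, with sortilin, the uncleaved forms. GDNF binds GFRA1, and the pair then activates the receptor tyrosine kinase RET. In the brainstem these systems are known for the survival and maturation of sensory, motor, and noradrenergic neurons and for the plasticity of respiratory circuits.

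The count of each gene pools transcripts from all its starts. Bdnf (ENSMUSG00000048482, GRCm38 chr2:109674700-109727007, plus strand) has 11 annotated transcripts, which mostly differ in their first exon, and RefSeq places 7 start windows within or beside it. Gdnf (ENSMUSG00000022144, chr15:7810846-7837575, plus strand) has 2 such windows. Across the 13 start windows of the genes (300 bases each, 250 of them before the start, from RefSeq on GRCm38.p6), 1 of Bdnf and 1 of Gdnf held TGACG or its reverse complement CGTCA, the core of the cAMP response element that activity-regulated factors bind. Those letters, on either strand, are in 20.8% of the 32851 windows of all genes. The 150 bases before the start are printed for these windows because they hold that motif. The other windows of Bdnf and Gdnf lacked it and are not printed. Capitals mark that motif and, in Gdnf, TATAAA, which with its reverse complement TTTATA is in 13.6% of all windows, and the motifs do not overlap.
Bdnf, GRCm38.p6 chr2:109692286-109692435, plus strand: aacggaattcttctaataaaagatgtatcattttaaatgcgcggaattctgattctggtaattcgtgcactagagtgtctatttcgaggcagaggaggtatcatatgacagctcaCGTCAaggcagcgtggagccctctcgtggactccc
Gdnf, GRCm38.p6 chr15:7809898-7810047, plus strand: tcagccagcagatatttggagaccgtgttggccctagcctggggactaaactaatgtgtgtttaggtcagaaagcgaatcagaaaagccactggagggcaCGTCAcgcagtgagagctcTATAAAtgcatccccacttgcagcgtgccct
The motif began 35 bases before the Bdnf start and 50 bases before the Gdnf start. A match of letters is a description and not a binding site. In the counts used here, a change at 1 start of Bdnf cannot be told apart from the sum over all of them. Windows were found for 5 of the 7 genes, and Ntrk3 and Ret have none in the table used.

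Total counts on genes ran from 27850565 to 48097947 per mouse (median 33214511). Levels are given as CPM, counts divided by the size of the library after TMM scaling, which corrects for the makeup of each library. Saline male 3 lay farthest from its group mates. The SD over genes of its log2 difference from them was 0.849, against at most 0.515 in the other 11 libraries. This SD compares a mouse only with its own group, so it does not tell which saline males differed from all other mice. Mbp was highest in saline males 1 and 2 (25768 and 27534 CPM, against 8351 to 16491 CPM in the other mice). Slc17a6 was highest in saline male 3 (474 CPM, against 276 to 382 CPM in the other mice). Morphine male 6 held Xist at 379.9 CPM with Y-linked genes at 9.03 to 19.0 CPM, so it did not match its sex label cleanly, and it was kept in its labelled group. The 7 markers listed for medulla and pons summed to 839.8 to 1119 CPM per mouse, and none was at 0 in every mouse of a group. Most of them are also known in the spinal cord, so they do not separate brainstem from the spinal cords that the description of RNA extraction names, and the tissue label was followed.

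The Trk receptors and Ret were more abundant per length than the ligands, whereas Ngfr lay below Bdnf. Divided by exon length, Ntrk2 was highest at 34.2 ± 1.41 CPM per kb (SD, n = 12), followed by Ret at 11.3 ± 1.20, Ntrk3 at 5.22 ± 0.690, Bdnf at 2.57 ± 0.338, and Ngfr at 1.22 ± 0.277 CPM per kb. Ntf3 at 0.209 ± 0.110 and Gdnf at 0.141 ± 0.0547 CPM per kb closed the order. Each of the first 5 genes lay above the next in all 12 mice, by 2.03-fold to 5.85-fold, whereas Ntf3 lay above Gdnf in 7 of 12 mice, so these 2 did not differ beyond their spread. The order stayed as it was when any mouse was left out and when the longest transcript replaced the union of exons, although with that length Ntrk2 was at 75.5 and Ntrk3 at 8.00 CPM per kb. The length of the transcripts actually made is not known from counts per gene, so levels between genes are approximate.

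The other ligands and receptors of the same systems reached as high as the 7 genes and further down. Among the neurotrophin genes, the sorting receptors Sort1 (35.4 ± 2.49 CPM per kb) and Sorl1 (28.0 ± 2.10) were near Ntrk2, and Sorcs1 (7.90 ± 0.942), Sorcs3 (3.84 ± 0.294), and Sorcs2 (2.73 ± 0.661) were near Ntrk3 and Bdnf. Neurotrophin 4 (Ntf5), the second ligand of TrkB, was at 0.0463 ± 0.0325 CPM per kb, below Bdnf and Ntf3.

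In the GDNF system, the coreceptors spanned a wide range. Gfra1, which binds GDNF, was at 15.9 ± 1.55 CPM per kb and thus close to Ret, with Gfra2 at 6.67 ± 1.15 and Gfra4 at 6.42 ± 1.35 below it. Gfral at 0.110 ± 0.0748 and Gfra3 at 0.0572 ± 0.0431 CPM per kb were near the floor. The alternative GDNF receptors Ncam1 (28.8 ± 2.31) and Sdc3 (34.0 ± 10.8 CPM per kb) were well above Ret, and Ncam1 was below Ntrk2. The ligands Pspn (0.447 ± 0.219), Artn (0.129 ± 0.0353), Nrtn (0.0542 ± 0.0863), and Gdf15 (0.0113 ± 0.0187 CPM per kb) were scarce like Gdnf, all from libraries in which they had few counts or, for Nrtn and Gdf15, none in some mice.

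**Figure D1:**
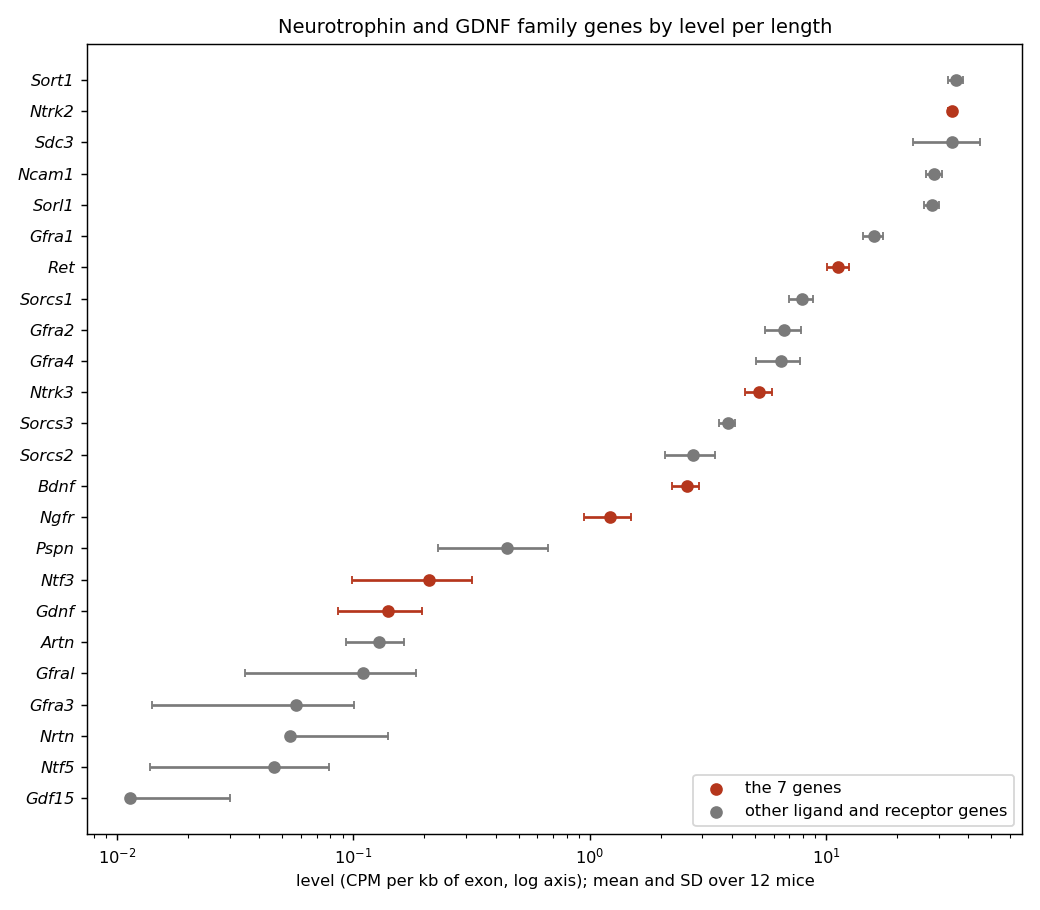
Mean level in CPM per kb of exon on a log axis for the 7 genes (red) and the other ligand and receptor genes (gray), with the SD over 12 mice; the bars of Nrtn and Gdf15, whose SD exceeds the mean, are drawn upward only. Ntrk2 sat at 34.2 and Gdnf at 0.141 CPM per kb, with every receptor among the 7 genes except Ngfr above every ligand.

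No gene of the 7 passed in any comparison of morphine with saline. To pass, a gene needed an unadjusted p below 0.05 in edgeR's quasi-likelihood test together with a log2 fold change beyond 0.26 in either direction. In the sex-combined comparison (6 morphine against 6 saline mice, with sex as a covariate) 0 of 7 genes passed, against 1.19% of 18608 genes tested. In females 0 of 6 tested genes passed, against 1.81% of 18109 genes, and in males 0 of 7 passed, against 2.99% of 18166 genes. With percentages this low, 0 of 7 genes is near the background, and the sex-combined comparison holds the same mice as those within each sex. None of the 7 had an unadjusted p under 0.05 in these comparisons, none passed with exactTest or DESeq2, and with Benjamini-Hochberg adjustment over all genes their adjusted p was 1.00 in edgeR throughout. The values of the saline and morphine mice overlapped for all 7 genes in each of the 3 comparisons, where groups did not overlap for 0.0430% of all genes in the sex-combined comparison, 5.65% in females, and 9.10% in males. The median log2 fold change of the 7 genes in the sex-combined comparison was 0.04, beside -0.02 over all genes tested.

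**Figure D2:**
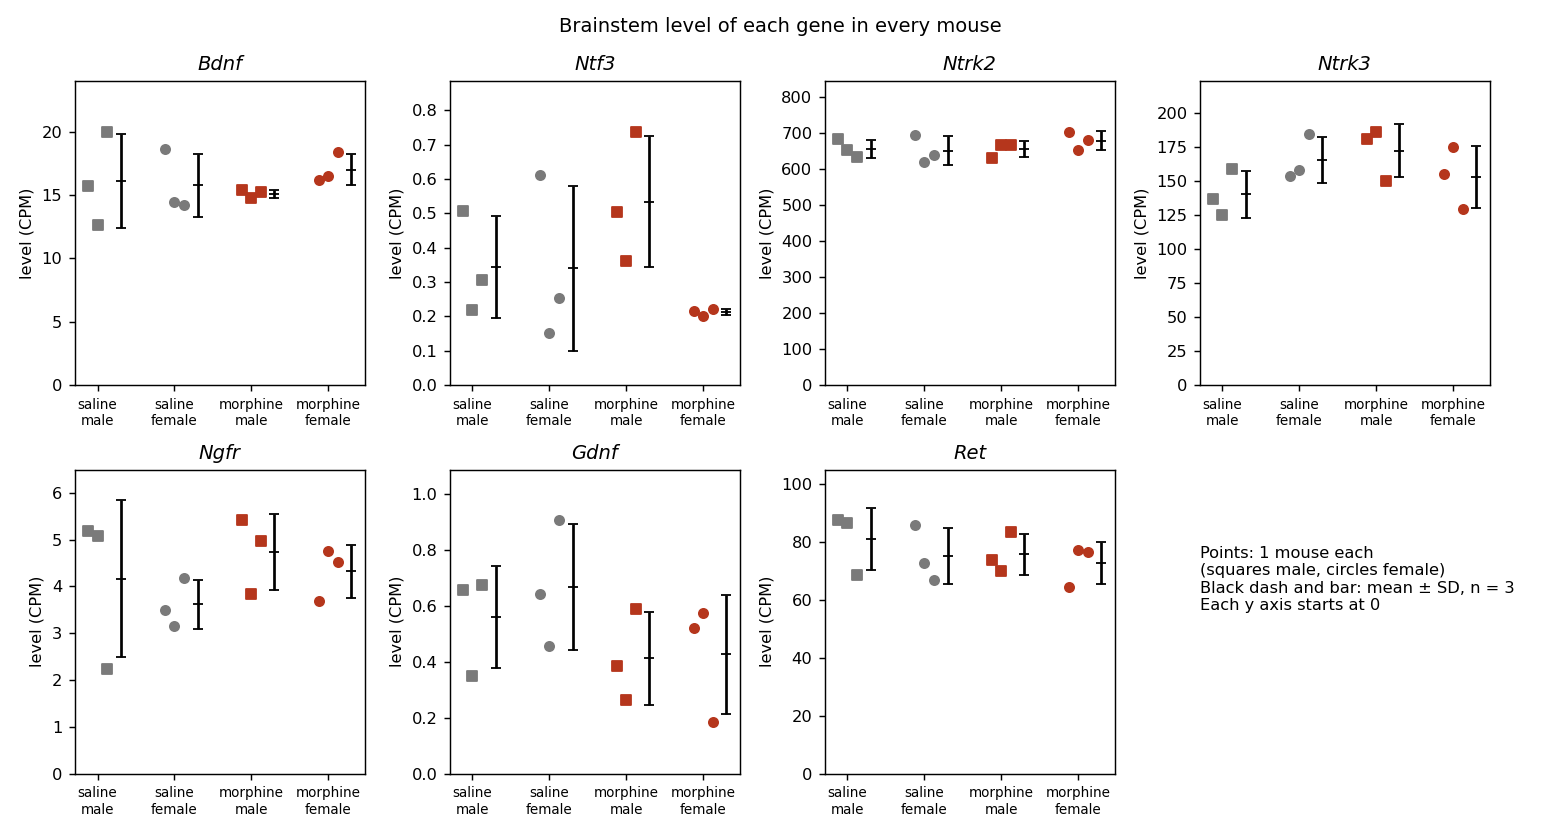
Level in CPM of each of the 7 genes in every mouse (squares male, circles female; gray saline, red morphine), with the mean ± SD of each group of 3 mice in black and each axis starting at 0. Saline and morphine values overlap in every panel, Ntrk2 varies least, and Ntf3 and Gdnf, which lie below 1 CPM, vary most.

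The spread between mice was largest for the genes with the fewest counts, but it did not follow depth gene by gene. Across the 12 mice the coefficient of variation was 4.12% for Ntrk2, which had 18541 to 29823 counts per mouse, and 52.8% for Ntf3, which had 5 to 25. Counting alone would give 0.669% for Ntrk2 and 28.8% for Ntf3. The corresponding values for Gdnf were 38.9% in all and 23.8% from counting. Bdnf with 450 to 653 counts and Ntrk3 with 3515 to 6509 varied alike, at 13.1% and 13.2%.

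Bdnf, the main ligand of TrkB, was at a like level in every group. It stood at 15.7, 12.7, and 20.0 CPM in saline males 1 to 3 and at 15.4, 14.8, and 15.2 CPM in morphine males 4 to 6. Among females it was at 18.6, 14.5, and 14.2 CPM in saline mice 4 to 6 and at 16.2, 16.5, and 18.4 CPM in morphine mice 1 to 3. The morphine males all fell within the range of the saline males, whose highest value was saline male 3, and the female groups overlapped. The sex-combined log2 fold change was 0.02 (SE 0.12), with a 95% interval from -0.25 to 0.28, a ratio of 0.843 to 1.22. The log2 fold change was 0.10 (SE 0.13) in females and -0.10 (SE 0.21) in males. An antisense gene, Gm45346, overlaps 896 bp of Bdnf exons, and it had 1 to 7 counts per mouse where Bdnf had 450 to 653.

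Ntf3 (ENSMUSG00000049107, chr6:126101412-126166910, minus strand), the ligand of TrkC, was too scarce for a firm comparison. Saline males 1 to 3 held 17, 10, and 10 counts (0.507, 0.219, and 0.306 CPM) and morphine males 4 to 6 held 17, 11, and 25 counts (0.505, 0.361, and 0.738 CPM). Saline females 4 to 6 held 21, 5, and 9 counts (0.612, 0.152, and 0.255 CPM) and morphine females 1 to 3 held 7, 7, and 6 counts (0.215, 0.202, and 0.220 CPM). The highest mouse was morphine male 6, whose sex genes were mixed, and in both sexes the groups overlapped. The log2 fold change was 0.65 in males (SE 0.44, 95% interval -0.39 to 1.70), and the sex-combined value was 0.07 (SE 0.40, interval -0.79 to 0.94). In females the gene failed the filter on low counts, and without that filter the log2 fold change was -0.68 (SE 0.62, unadjusted p = 0.273 in edgeR's quasi-likelihood test). The interaction, the morphine effect in males minus that in females, was 1.34 (SE 0.74, interval -0.27 to 2.95, unadjusted p = 0.0943) in edgeR's test.

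Ntrk2 (ENSMUSG00000055254, chr13:58806569-59133970, plus strand) encodes TrkB, whose full-length form is mainly neuronal and whose truncated form is abundant in astrocytes, and the counts do not separate them. It was the steadiest of the 7 genes. Saline males held 682, 652, and 632 CPM and morphine males 629.6, 667, and 667 CPM, so the male groups overlapped. Saline females held 696, 618, and 639 CPM and morphine females 704, 653, and 680.3 CPM, with morphine female 1 the highest of all mice and saline female 5 the lowest. The sex-combined log2 fold change was 0.04 (SE 0.06), and its 95% interval of -0.09 to 0.17 corresponds to a ratio of 0.938 to 1.13. That interval lies within the fold threshold in both directions, which was true of Ntrk2 and Ret among the 7 genes in this comparison. Within females the log2 fold change was 0.05 (SE 0.08) and within males -0.01 (SE 0.11).

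Ntrk3 (ENSMUSG00000059146, chr7:78175959-78738012, minus strand), the TrkC receptor of proprioceptive and many brainstem neurons, had the smallest p of the 7 genes for a difference in the morphine effect between the sexes. Saline males 1 to 3 held 137, 125, and 159 CPM, and morphine males 4 to 6 held 181, 186, and 149.6 CPM. Saline females 4 to 6 held 153, 158, and 184 CPM, and morphine females 1 to 3 held 155, 174, and 129 CPM. In males, morphine mice 4 and 5 lay above all saline males. The groups overlapped in that saline male 3, farthest from its group mates, lay above morphine male 6, the library with mixed sex genes. The lower saline values came from saline males 1 and 2, which themselves lay apart from all other mice in Mbp and in Olig1. Olig1 was at 272 and 316 CPM in them, against 108 to 166 CPM in the other mice. Saline male 3 lay within the Ntrk3 range of the saline females. The part of these library differences in the Ntrk3 values was not tested. In females the range of the morphine mice covered all saline mice but the highest. The log2 fold change was 0.29 (SE 0.15, 95% interval -0.07 to 0.65) in males and -0.12 (SE 0.13, interval -0.41 to 0.16) in females. The interaction was 0.43 (SE 0.21, interval -0.02 to 0.88, unadjusted p = 0.0618, adjusted p = 0.985 in edgeR's quasi-likelihood test), so the difference between the sexes did not pass. Marker genes of other tissue moved in the same males: 5 of 7 choroid plexus markers and 3 of 7 cerebellar granule cell markers passed as higher with morphine, with summed levels of 273 to 529 CPM in saline and 421 to 852 CPM in morphine males for choroid plexus and of 102 to 136 and 124 to 194 CPM for granule cells, and their part in the Ntrk3 values was not tested. In males 1 of 8 astrocyte, 1 of 7 mature oligodendrocyte, 1 of 6 oligodendrocyte precursor, and 1 of 6 noradrenergic neuron markers passed as lower. In females 1 of 7 choroid plexus and 3 of 8 meningeal markers passed as lower, with all of both lists below 0. For the interaction, 2 choroid plexus, 1 meningeal, and 1 granule cell marker passed as higher. In that comparison 2 oligodendrocyte precursor markers and 1 noradrenergic neuron marker passed as lower. None of the choroid plexus or granule cell markers was at 0 in every mouse of a group. The summed level of 7 neuron markers was 6031 to 8103 CPM in saline and 6082 to 6300 CPM in morphine males.

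Which side of the threshold Ntrk3 fell on depended on single mice. Without saline male 3 its log2 fold change in males was 0.43 (unadjusted p = 0.00443, adjusted p = 0.0435 in edgeR's quasi-likelihood test), but then 28.6% of all genes tested passed as well. Without saline male 2 the value was 0.20 (unadjusted p = 0.272 in edgeR's test). That mouse held the highest level of each of 7 skeletal muscle markers. They summed to 41.6 CPM in it, against at most 5.34 CPM in mice of the other groups, and their part in the Ntrk3 value was not tested. The interaction passed in 3 of 12 fits with a mouse left out: at 0.51 without saline male 3, where 24.1% of all genes passed, at 0.53 without morphine female 2, where 4.41% passed, and at 0.52 without morphine male 6, where 3.39% passed. The value was positive in males and in the interaction in every one of these fits. When libraries were scaled by total counts instead of TMM, which raised the median of all genes by 0.13 in males, the male value was 0.41 (unadjusted p = 0.0300) in edgeR's test and 4.44% of genes passed. The interaction of Ntrk3 was then 0.53 (unadjusted p = 0.0323) in edgeR's test, with 3.68% of genes passing. A change of scaling shifts nearly all genes alike. The male value of Ntrk3 relative to the median of all genes, 0.35 under either scaling, therefore had to stay the same and is no check of Ntrk3.

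**Figure D3:**
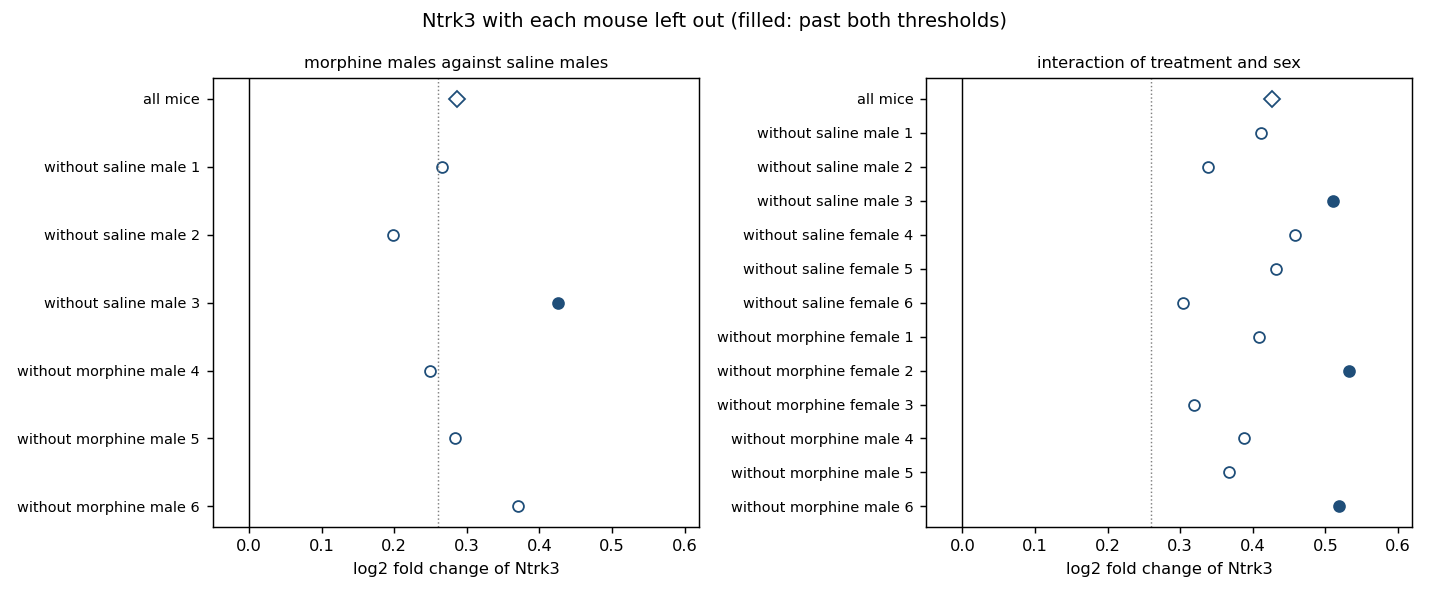
Log2 fold change of Ntrk3 in males (left) and for the interaction of treatment and sex (right), with all mice (diamond) and with each mouse left out (circles); filled points passed both thresholds, and the dotted line marks 0.26. All points lie above 0, from 0.20 to 0.43 in males and from 0.30 to 0.53 for the interaction, and few are filled.

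Ngfr (ENSMUSG00000000120, chr11:95568818-95587735, minus strand), the p75 neurotrophin receptor of Schwann cells, sensory and cholinergic neurons, was near 4 CPM. Saline males held 5.19, 5.08, and 2.24 CPM and morphine males 5.41, 3.84, and 4.96 CPM, with saline male 3 the lowest of all mice. Saline females held 3.50, 3.16, and 4.19 CPM and morphine females 3.69, 4.75, and 4.51 CPM. In females 2 of 3 morphine mice lay above all saline mice, and in males all morphine mice lay above saline male 3 and 1 lay above all saline males. The sex-combined log2 fold change was 0.23 (SE 0.19), with a 95% interval of -0.19 to 0.65, and it was 0.08 without saline male 3. The log2 fold change was 0.25 (SE 0.19) in females and 0.18 (SE 0.34) in males, and without saline male 3 the male value turned to -0.08. In bulk tissue, fewer cells of a type and less RNA per cell cannot be told apart, for Ngfr and for every other gene here.

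Gdnf had the most negative sex-combined difference of the 7 genes, from few counts. Saline males held 22, 16, and 22 counts (0.656, 0.350, and 0.674 CPM) and morphine males 13, 8, and 20 counts (0.386, 0.262, and 0.590 CPM). Saline females held 22, 15, and 32 counts (0.641, 0.456, and 0.906 CPM) and morphine females 17, 20, and 5 counts (0.523, 0.576, and 0.183 CPM). The groups overlapped in both sexes, although the mean of the morphine mice was lower in each. The sex-combined log2 fold change was -0.51 (SE 0.32, unadjusted p = 0.136 in edgeR's quasi-likelihood test), with a 95% interval of -1.20 to 0.18, a ratio of 0.436 to 1.13. It was -0.63 (SE 0.47) in females and -0.42 (SE 0.43) in males. Leaving out each mouse gave sex-combined values between -0.67 and -0.36, all negative, and none passed. The interval thus holds both no difference and a fall to less than 0.5 of the saline level.

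Ret (ENSMUSG00000030110, chr6:118151745-118197718, minus strand), the signaling receptor for GDNF and its relatives, was well measured and differed little. Saline males held 87.4, 86.7, and 68.6 CPM and morphine males 73.8, 69.9, and 83.6 CPM. Saline females held 85.8, 72.9, and 66.8 CPM and morphine females 64.3, 77.1, and 76.7 CPM. The groups overlapped in both sexes, and saline male 3 was again the lowest of its group. The sex-combined log2 fold change was -0.06 (SE 0.09), with a 95% interval of -0.26 to 0.14, a ratio of 0.836 to 1.10. It was -0.05 (SE 0.11) in females and -0.10 (SE 0.15) in males. Its coreceptor Gfra1 had a sex-combined log2 fold change of -0.10 (SE 0.09), and it did not pass.

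**Figure D4:**
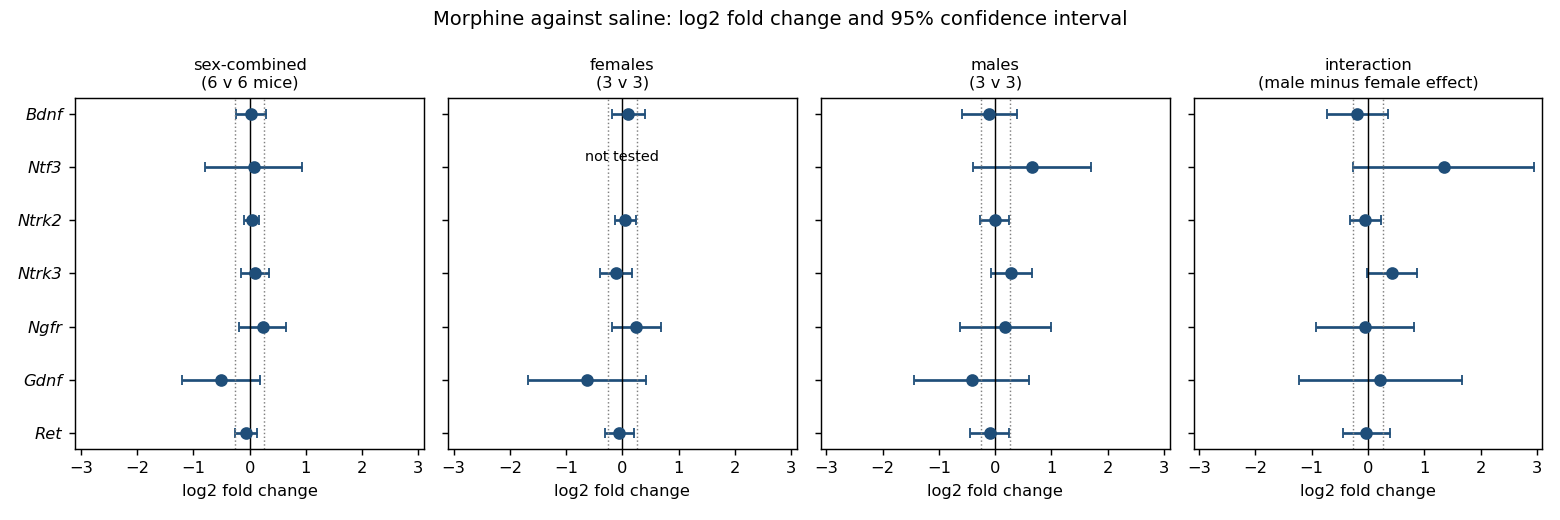
Log2 fold change of morphine against saline with its 95% confidence interval for each of the 7 genes, sex-combined, in females, in males, and for the interaction of treatment and sex; dotted lines mark the fold threshold of 0.26 in each direction. Every interval includes 0, the sex-combined interval of Ntrk2 (-0.09 to 0.17) is the narrowest of that panel, and Ntf3 was not tested in females.

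For the interaction of treatment and sex, 0 of 7 genes passed, against 2.94% of 19027 genes tested, and 0 passed with DESeq2 or with the threshold on unadjusted p alone. Without saline male 1 the interaction of Ntf3 was 1.73 (unadjusted p = 0.0483) and without saline female 5 it was 1.66 (unadjusted p = 0.0377), both in edgeR's quasi-likelihood test, when 1.86% and 2.27% of all genes passed. For the other 5 genes the interaction ranged from -0.19 (Bdnf, SE 0.25) to 0.22 (Gdnf, SE 0.66).

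The sexes were also compared at baseline, among saline mice. Of the 7 genes, 0 passed between saline males and saline females, against 7.62% of 19027 genes, and no group pair was without overlap, against 4.29% of genes. None passed with DESeq2 or on unadjusted p alone. Ntrk3 had the smallest p: it averaged 140.1 ± 17.2 CPM in saline males and 165 ± 16.6 CPM in saline females (SD, n = 3 each), a log2 difference of -0.26 (SE 0.15, unadjusted p = 0.107 in edgeR's quasi-likelihood test). Without saline male 3 the difference was -0.33 for Ntrk3 and 0.51 for Ngfr, and both passed, at a setting where 36.7% of all genes passed. This comparison and that of morphine with saline males share the saline males, so the values of Ntrk3 in them are not independent.

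The wider pathway gave little more. Across 7 lists of 111 genes (other ligands and receptors, p75 partners, proneurotrophin processing, Trk and Ret adaptors and kinases, genes that follow Trk and ERK signaling, and regulators of Bdnf transcription), 1 of 104 tested genes passed in the sex-combined comparison, 1 of 104 in females, and 1 of 103 in males, which is 0.962%, 0.962%, and 0.971% beside the 1.19%, 1.81%, and 2.99% of all genes. When a mouse was left out, the count ran from 0 to 3 sex-combined, from 0 to 15 in females (15 without saline female 4), and from 0 to 40 in males (40 without saline male 3). The median log2 fold change over these genes was -0.03 sex-combined, 0.02 in females, and -0.10 in males, beside medians over all genes of -0.02, -0.01, and -0.06. Of the 42 adaptors and kinases, 12, 20, and 13 had a log2 fold change above 0 in these comparisons. For the interaction, 0 of 104 genes passed in edgeR's quasi-likelihood test, with or without the fold threshold, and 2 with DESeq2.

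Each of the 3 list genes that passed did so in 1 comparison. Mmp9, a secreted protease that can cleave proneurotrophins, was lower in morphine mice sex-combined, at 2.40 ± 0.418 against 3.11 ± 0.611 CPM (SD, n = 6), a log2 fold change of -0.36 (SE 0.15, unadjusted p = 0.0297, adjusted p = 1.00 in edgeR's quasi-likelihood test), and it passed in 7 of 12 fits with a mouse left out. Etv4, an ETS factor induced by ERK and by GDNF in motor neurons, passed in females at 0.27 (SE 0.12, unadjusted p = 0.0434, adjusted p = 1.00 in edgeR's test), and in 1 of 6 such fits. Spry2, a feedback inhibitor of receptor tyrosine kinases, passed in males at -0.38 (SE 0.14, unadjusted p = 0.0310, adjusted p = 1.00 in edgeR's test), and in 2 of 6 such fits. In the other comparisons with saline, Mmp9 was at -0.30 in females and -0.44 in males, Etv4 at 0.08 sex-combined and -0.14 in males, and Spry2 at -0.22 sex-combined and -0.10 in females. With exactTest 0 list genes passed in each of the 3 comparisons.

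Between saline males and females, 13 of 104 list genes passed, all higher in males, which is 12.5% beside the 6.30% of all genes that were higher in males. Among them were the p75 partners Lingo1 (log2 difference 0.94) and Rtn4r (1.80) and the immediate early gene Junb (1.70), each with an adjusted p of 0.639 in edgeR's quasi-likelihood test. The count ran from 1 to 52 list genes when a mouse was left out, with 1 without saline male 2 and 52 without saline male 3.

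Across the 12 libraries, the genes whose level followed that of each member most closely were ranked by Pearson's r of log2 CPM over 15055 genes with a mean of at least 1 CPM, as a description. For Ntrk3 they were Cacna1e, the R-type calcium channel (r = 0.988, Spearman's rho = 0.986), Ddi2 (r = 0.968), and Gpr26 (r = 0.967), and r with Cacna1e was 0.982 without the 2 mice farthest from the median of Ntrk3. Cacna1e itself averaged 134 CPM. For Bdnf they were Ap1ar (r = 0.937), Reep1 (r = 0.915), and Ttc9 (r = 0.909), and for Ret they were Acly (r = 0.941), Ywhag (r = 0.921), and Hcls1 (r = 0.919). The nearest genes to Ngfr were Ablim3 (r = 0.931), Flt4 (r = 0.931), and Serinc2 (r = 0.926), but r with Ablim3 was 0.752 without saline male 3 and saline female 5, so it leaned on those mice. Ntrk2, which varied least, had the loosest neighbors, with Srp9 at r = 0.838, Hsd11b1 at r = 0.830, and Ube2l6 at r = 0.826. The libraries share their preparation, and the closest of 15055 genes over 12 points are picked for a high r. What made these r values high was not tested. Ntf3 and Gdnf were below 1 CPM and were not ranked.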

How the data were processed

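The authors aligned 100 bp single-end reads to mm10 with STAR after trimming with Trimmomatic, and counted them over the exons of Ensembl GRCm38 genes with featureCounts. The deposited values are these raw counts per gene, in whole numbers whose total differs between the 12 libraries. Strand and multi-mapping settings are not given in the sources used here. Positions and exon lengths came from GENCODE M21 on GRCm38, where all 55418 symbols were found, 115 of them for more than 1 gene.

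The 7 genes and the gene lists were chosen with earlier results of these data known. Genes were tested in edgeR 4.0.16 (R 4.3.3) with TMM, filterByExpr, and the quasi-likelihood test, a sex covariate in the sex-combined fit, and fits of each sex alone, and the p was adjusted over all genes tested. The interaction and the saline sexes were contrasts of 1 fit of 12 mice. The SE came from the fold change and its F value. The study's exactTest cannot hold a covariate and was an alternative, as were DESeq2 1.42.0, other scalings, filters, thresholds, and samples. Dam was a covariate of the study but is not in the labels and was not used. Simulated counts with 200 changed genes served to test the sex-combined, female, and male fits. The fit that gave the interaction and the saline sexes was not tested in this way. An exact permutation test of 3 against 3 mice cannot go below 0.1.

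The text names all 7 genes, every gene of both ligand and receptor lists, up to 5 passing genes of each other list in each morphine comparison, and the 3 closest genes by r. Genes that this rule picks but that are not named are not reported here. Lingo1, Rtn4r, and Junb were chosen after their values were seen.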

Additional observations from a re-analysis of the deposited data

How the results depend on the processing

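Leaving out a mouse gave 0 to 1 passing genes of the 7 in males, 0 to 1 for the interaction, 0 to 2 between the saline sexes, and 0 throughout in the sex-combined and female comparisons. Scaling by total counts gave 1 in males and 1 for the interaction, Ntrk3 in each. That scaling moved the share of passing genes that were higher from 64.3% to 91.3% in males, 51.1% to 72.7% sex-combined, and 54.7% to 81.2% for the interaction. Of 545 values of the 7 genes under other settings, 472 kept their direction and did not pass, 10 passed, and 63 turned sign, and the cause was not tested. The replicate numbers of the titles showed no clear pairing of the mice (correlations of deviations from -0.51 to 0.24 over 6 numbers). These are deviations from means of 3 mice, so they cannot exclude shared litters. With the replicate number as a block 0 of the 7 genes passed sex-combined, with Gdnf at -0.53 and Ngfr at 0.26. The block was fitted sex-combined alone, since within a sex the saline and morphine mice share no number, and it changed no call on the 7 genes there.

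Some log2 fold changes turned sign when all mice were kept. In males, Ntrk2 was 0.0085 with DESeq2 and with its size factors and 0.015 in the fit of 12 mice, and with total counts Ntrk2 was 0.11, Bdnf 0.023, and Ret 0.024. For the interaction with total counts, Ntrk2 was 0.053, Ngfr 0.052, and Ret 0.069. Between the saline sexes, Ntf3 was 0.0072 with DESeq2, 0.0020 with its size factors, and 0.016 in saline mice alone, Ntrk2 was 0.016, 0.016, and 0.027 at these settings and 0.010 without the filter, and Bdnf was -0.020 with total counts.

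Leaving out a mouse gave sex-combined ranges of -0.043 to 0.099 for Bdnf and -0.16 to 0.44 for Ntf3, and -0.12 to 0.043 for Ret in females. In males the ranges were -0.26 to 0.13 for Bdnf, -0.033 to 0.033 for Ntrk2, -0.079 to 0.36 for Ngfr, and -0.19 to 0.010 for Ret. For the interaction they were -0.37 to 0.13 for Ngfr, -0.12 to 0.49 for Gdnf, and -0.15 to 0.033 for Ret. Between the saline sexes they were -0.14 to 0.18 for Bdnf, -0.41 to 0.73 for Ntf3, -0.041 to 0.073 for Ntrk2, -0.0035 to 0.51 for Ngfr, and -0.46 to 0.044 for Gdnf. Gdnf between the saline sexes thus turned from -0.29, past the fold threshold, to 0.044. Ntf3 and Gdnf rest on the fewest counts, and every comparison on 3 or 6 mice a group.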
